A study of Mus musculus with 2 samples.

Results

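Erythroid cells, the lineage that makes red blood cells, were examined in 2 single-cell RNA libraries of the embryonic mouse brain. Erythroid barcodes were those in which the 7 globin genes *Hba-a1*, *Hba-a2*, *Hba-x*, *Hbb-bs*, *Hbb-bt*, *Hbb-y* and *Hbb-bh1* together held at least 20% of the unique molecular identifiers (UMIs, each counting 1 captured RNA molecule). Barcodes were considered if their total lay from 1500 to 60000 UMIs with less than 10% of it mitochondrial. By this rule 187 of 12936 kept barcodes were erythroid, 71 of 5453 in replicate 1 and 116 of 7483 in replicate 3. Their share was 1.30% of the kept barcodes in replicate 1 (95% Wilson interval 1.03 to 1.64%) and 1.55% in replicate 3 (1.29 to 1.86%), with a mean of 1.43% ± 0.175 (SD, n = 2). The intervals cover counting error only.

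The study asked how the DNA methyltransferase DNMT1 acts in migrating interneurons, and these libraries describe the tissue through which such cells move. Both libraries were made from dissociated dorsal telencephalon at embryonic day 14.5, are labelled EoMltt3 with the genotype WT, and name brain hemispheres as the tissue. No treated or mutant sample was analysed here, so the comparisons below are between barcodes of the same libraries. The number of embryos behind each library was not given in the sources used here, and p-values measure only the spread between these 2 libraries. Replicate 1 held 64182006 UMIs in 6163 barcodes and replicate 3 held 93295807 UMIs in 8870 barcodes. The libraries shared 23 barcode sequences, and 0 of these were erythroid.

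Red cells of the mouse embryo come in successive waves. Primitive erythroid cells from the yolk sac enter the circulation first and make embryonic globins, and definitive cells from the fetal liver follow and make adult globins. Late in maturation a definitive red cell loads iron into haem, assembles a spectrin skeleton under its membrane, clears its organelles and expels its nucleus, after which its RNA is no longer renewed.

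Globin RNA separated the barcodes into 2 groups with few in between. Globins held under 1% of UMIs in 5368 of the 5382 other barcodes of replicate 1 and in 7352 of 7367 in replicate 3, and at least 80% in 59 and 94 barcodes. Only 3 barcodes in each replicate lay between 10 and 20%. The nearest barcodes outside the threshold had globin shares of 13.7% and 12.7%, and the nearest inside had 22% and 23.4%. These shares chose the barcodes and are given as a description.

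**Figure D1:**
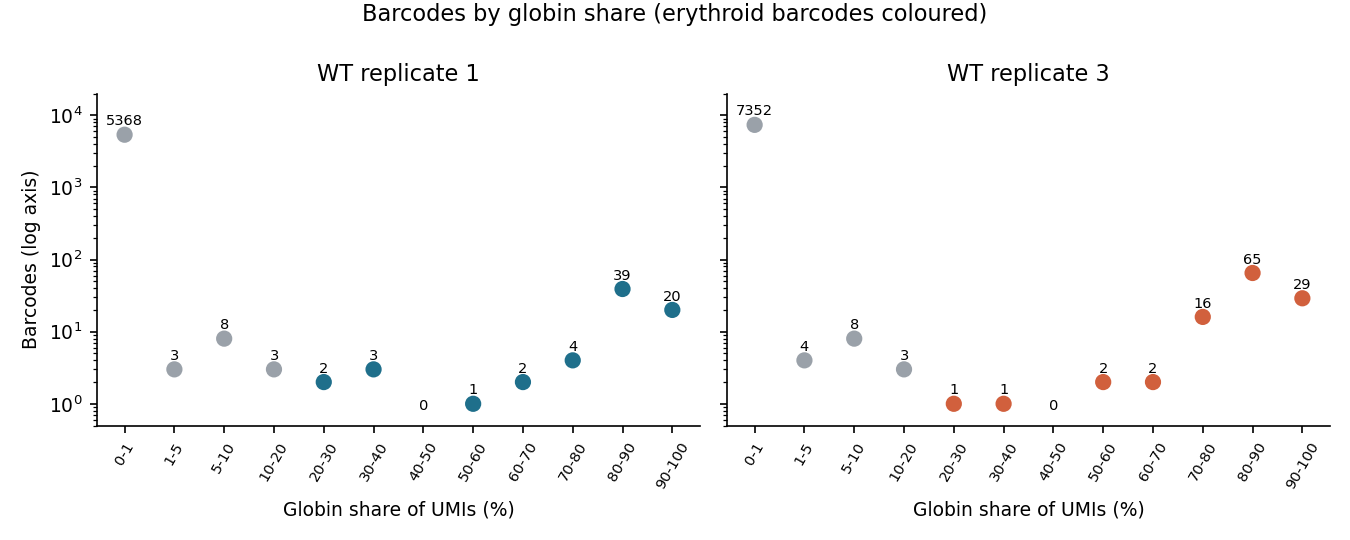
Number of kept barcodes (log axis) by the globin share of their UMIs (%), for WT replicate 1 (left) and WT replicate 3 (right), with erythroid bins coloured, other bins grey and the count above each point. Most barcodes were under 1% (5368 and 7352) and a second group lay at 80 to 90% (39 and 65), with 0 barcodes between 40 and 50% in either replicate.

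The erythroid barcodes carried little RNA other than globin. The median barcode held 4881 UMIs in replicate 1 and 3438.5 in replicate 3, against 10702.5 and 10972 in the other barcodes. Its globin share was 88.3% and 86.1%, which left a median of 531 and 494 UMIs for all other genes. It showed a median of 270 and 297.5 genes, against 3614.5 and 3708 in the other barcodes. At an equal depth of 300 non-globin UMIs per barcode the median was 189 and 197 genes in erythroid barcodes and 256 and 257 in the others, with 8 and 11 erythroid barcodes left out as too shallow.

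A small set of barcodes differed from the rest. In 8 barcodes of replicate 1 and 6 of replicate 3 the globin share was between 20 and 70%, and these held up to 4750 genes and 16927 non-globin UMIs each. They contributed 66.6% of all non-globin UMIs of the erythroid barcodes in replicate 1 (67987 of 102157) and 34.2% in replicate 3 (33751 of 98637). Brain cell type markers held a median of 0.695% of their non-globin UMIs in replicate 1 (highest 0.891%) and 0.597% in replicate 3 (highest 0.794%). In erythroid barcodes of at least 70% globin, which had far fewer such UMIs, the median was 0.380% (highest 1.348%) and 0.379% (highest 1.90%), and in the other barcodes it was 0.839% and 0.762%. A doublet caller, which marked a number of top-scoring barcodes fixed beforehand, marked 0 of these 14 barcodes. Their part in some results below was measured by repeating these on the 63 and 110 barcodes with at least 70% globin, a restriction chosen after seeing the data. Results given only for all erythroid or all adult-type barcodes include these 14.

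**Figure D2:**
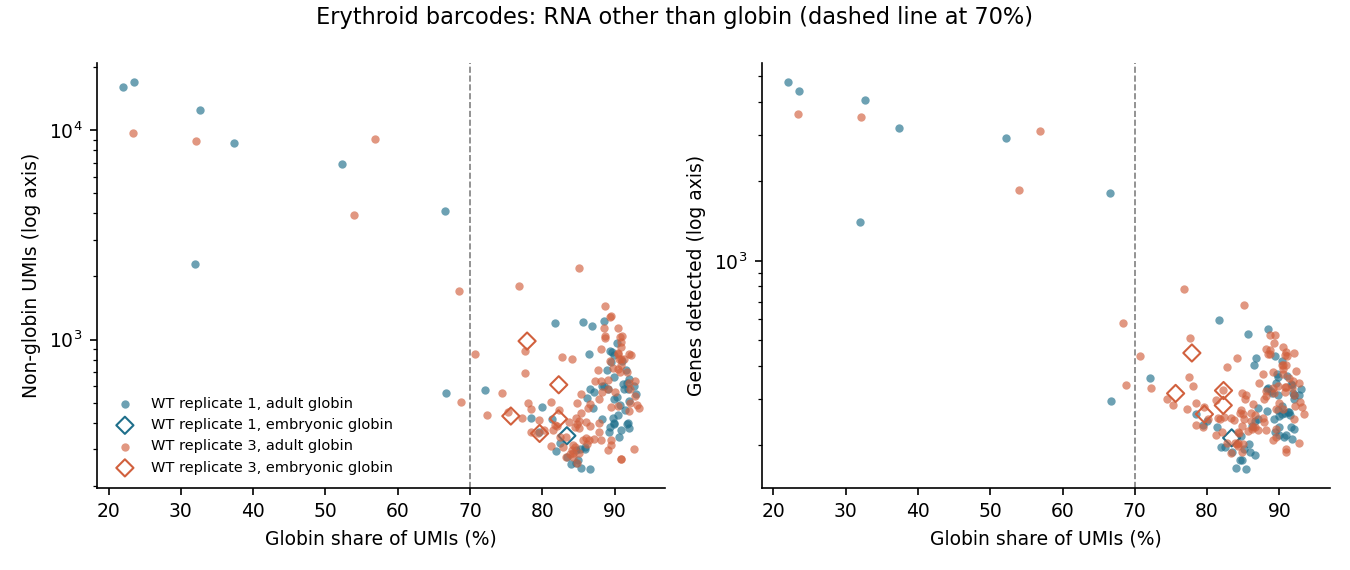
UMIs of genes other than the globins (left, log axis) and number of genes detected (right, log axis) against the globin share of UMIs (%) in each of the 187 erythroid barcodes. Filled circles are barcodes with adult globins and open diamonds the 6 with embryonic globins, coloured by replicate. Left of the dashed line at 70% globin, barcodes reached 16927 non-globin UMIs and 4750 genes, against at most 2202 and 780 to its right.

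The defining genes of the lineage were checked first. *Alas2*, the erythroid form of the enzyme that starts haem synthesis (chrX:150547417-150570622, GRCm38), had a UMI in 62 of 71 and 105 of 116 erythroid barcodes. Thinned to 300 non-globin UMIs, it was seen in 79.4% of erythroid barcodes in replicate 1 (95% Wilson interval 67.8 to 87.5%) and 84.8% in replicate 3 (76.7 to 90.4%), against 0.204% and 0.244% of the other barcodes. Without thinning, 5.89% and 5.43% of the other barcodes had an *Alas2* UMI. *Hemgn*, a nuclear protein of erythroid precursors, was rare. It had a UMI in 3 of 71 and 4 of 116 erythroid barcodes, and the early regulators *Gata1* (0 and 3 UMIs) and *Epor*, the erythropoietin receptor (0 and 0 UMIs), were near or at 0. Pooled over replicates, the level of *Gata1* was 149.5 times that in the other barcodes, where it had 15 UMIs (exact 95% counting interval 27.7 to 529). A count of 0 over 200794 non-globin UMIs allows up to 14.9 UMIs in every 1000000 (3 counts).

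The 7 globins split sharply between embryonic and adult types. Of the beta-like globins, *Hbb-bs* and *Hbb-bt* are adult, and *Hbb-y* and *Hbb-bh1* are embryonic. In 1 barcode of replicate 1 and 5 of replicate 3, 96.2 to 98.3% of the beta-like UMIs were embryonic. In the other 70 and 111 barcodes the highest share was 0.176% and 3.88%, and 68 and 87 barcodes had no embryonic beta-like UMI. No barcode lay between 5 and 95%. Over all erythroid barcodes, embryonic genes made 0.502% of beta-like UMIs in replicate 1 and 2.16% in replicate 3 (mean 1.33% ± 1.17, SD, n = 2).

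**Figure D3:**
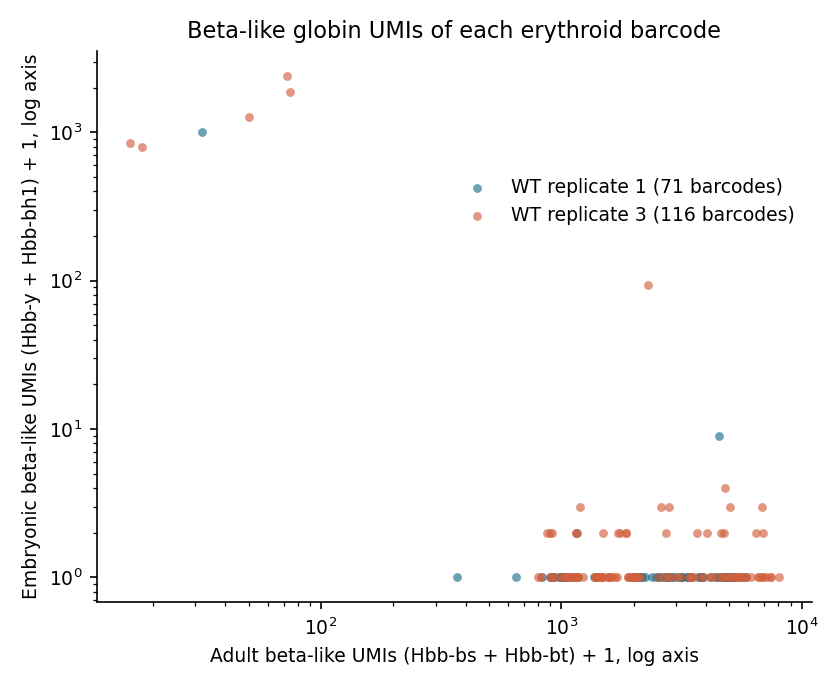
Embryonic (*Hbb-y* plus *Hbb-bh1*) against adult (*Hbb-bs* plus *Hbb-bt*) beta-like globin UMIs of each erythroid barcode, both with 1 added and on log axes, coloured by replicate. The 6 barcodes with embryonic globins sit at the upper left and the 181 with adult globins along the bottom, with 1 barcode of replicate 3 at 93 embryonic UMIs between them.

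The balance of globin chains was measured in each adult-type barcode. The ratio of alpha-like to beta-like UMIs had a median of 0.545 in replicate 1 (quartiles 0.493 to 0.590, range 0.4 to 2.03) and 0.480 in replicate 3 (0.428 to 0.520, range 0.2496 to 0.9746). The ratio of *Hbb-bt* to *Hbb-bs*, the 2 adult beta genes, had a median of 0.360 (0.320 to 0.422, range 0.0398 to 0.530) and 0.403 (0.354 to 0.453, range 0.0927 to 0.604), so the middle of each set was narrow and single barcodes lay far from it. In replicate 1 the highest alpha-like to beta-like ratio and the lowest *Hbb-bt* to *Hbb-bs* ratio came from the same barcode. It had 66.7% globin, so it was among the 14 of lower globin share, and mitochondrial transcripts held 29.4% of its non-globin UMIs. *Hba-a1* held 34.6% and 31.8% of all globin UMIs and *Hba-a2* held 0.705% and 0.747%. These alpha genes are nearly identical in sequence, so how reads were divided between them is uncertain.

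The 6 embryonic-type barcodes held mainly embryonic beta-like RNA and both kinds of alpha-like RNA. Each had 801 to 2400 UMIs of *Hbb-y*, and 110 to 672 of *Hba-x*, the embryonic alpha-like gene. *Hba-a1*, the alpha gene of the adult type, had 33 UMIs beside 672 of *Hba-x* in the barcode of replicate 1. In the 5 barcodes of replicate 3 it had 280 to 623, more than *Hba-x* in all but the one with 575 of *Hba-x* and 409 of *Hba-a1*. *Hbb-bh1*, the other embryonic beta-like gene, had 0 to 13 UMIs. In total these barcodes held 1748 to 4448 UMIs and 213 to 447 genes.

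Beyond globin they also differed in composition from the 167 adult-type barcodes with at least 70% globin, although no test was run, since a minimum of 10 barcodes per side had been set and replicate 1 held 1 such barcode. The values that follow are shares of non-globin UMIs pooled over barcodes, 3143 UMIs from the embryonic and 95913 from the adult type, with Wilson intervals for counting error. *Alas2* held 1 UMI in the embryonic type (0.0318%, 0.00562 to 0.180%) and 1.14% in the adult type (1.08 to 1.21%). *Slc25a37*, which carries iron into mitochondria, held 0 UMIs, which allows up to 0.0955% at 3 counts (Wilson upper limit 0.122%), against 0.546% (0.502 to 0.595%). *Bpgm*, whose product 2,3-bisphosphoglycerate lowers the oxygen affinity of haemoglobin, held 1 UMI, against 0.818% (0.763 to 0.877%).

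Some further genes lay apart between the types and others did not. *Ubb*, a ubiquitin gene, held 1.37% (1.02 to 1.84%) in the embryonic type and 1.57% (1.49 to 1.65%) in the adult type. *Bnip3l*, a mitochondrial clearance receptor, held 0.191% (0.0875 to 0.416%) and 0.399% (0.361 to 0.441%), but 1.15% and 0.435% in replicate 1. *Fech*, *Prdx2*, *Blvrb* and *Car2* were lower in the embryonic type, with intervals that did not overlap when pooled or within replicate 3. Within replicate 1, which held 1 embryonic barcode of 347 non-globin UMIs, the intervals of each of these genes overlapped. For *Car2* they were 0.0509 to 1.61% and 0.305 to 0.434%. *Gpx1*, a glutathione peroxidase, held 0.0318% of non-globin UMIs in the embryonic type (0.00562 to 0.180%) and 2.0% in the adult type (1.92 to 2.09%). *Ftl1*, the ferritin light chain, held 1.91% (1.49 to 2.45%) and 4.69% (4.56 to 4.83%). *Fth1*, the ferritin heavy chain, held 4.17% (3.52 to 4.92%) against 3.06% (2.95 to 3.17%), but this rests on the barcode of replicate 1 (10.4%), and within replicate 3 the values were 3.40% (2.79 to 4.14%) and 3.01% (2.88 to 3.15%), with intervals that overlap. Ribosomal protein genes held 27.8% (26.2 to 29.4%) and 16.2% (15.9 to 16.4%). *Malat1*, a nuclear long noncoding RNA, held 1.56% (1.18 to 2.06%) and 0.223% (0.195 to 0.255%). Its 49 embryonic-type UMIs were all from replicate 3, 23 and 15 of them from 2 barcodes, and the barcode of replicate 1 had 0 of 347, where the adult type held 0.189%. Mitochondrial transcripts held 0.795% (0.539 to 1.17%) and 4.01% (3.89 to 4.14%), with 0 UMIs in 3 of the 6 barcodes and 19 in the highest. The doublet caller marked these 6 barcodes and no other erythroid barcode, and its scoring was not tested against other evidence. Brain cell type markers held 0.605% (0.387 to 0.942%) of their non-globin UMIs and 0.380% (0.343 to 0.420%) in the adult type.

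Genes other than globins were then compared between erythroid and other barcodes. Counts were summed per replicate and group without the 7 globins, and levels are given as UMIs in every 1000000 non-globin UMIs (CPM). The barcodes were chosen by globin, and the tests below are on genes the rule did not use. Of 16703 genes tested, 258 passed an adjusted p of 0.05 (1.54%), of which 240 were higher (1.44%) and 18 lower (0.108%) in erythroid barcodes. With the replicate as a block, which pairs the 2 sums of 1 library, 456 passed (2.73%), 310 higher (1.86%) and 146 lower (0.874%). In barcodes with at least 70% globin 1034 of 16668 passed (6.2%), 398 higher (2.39%) and 636 lower (3.82%), and 251 of the 258 were among them. The median log2 difference over all genes was -0.69, moved to 0.09 with DESeq2 size factors and was -3.84 at 70% globin, where most genes had few or no UMIs. Of the 240 higher genes, 44 were in the gene lists described next, and all 44 were higher in every alternative fit of both replicates in which they were tested. Of these 44, 9 were so low in the other barcodes that they reached the filter on low counts (0.321 CPM) only with an erythroid sum, and such genes could hardly be called in the other direction. Over all 16703 genes, 92 reached the filter only in this way, and 31 of them were higher and 0 lower. Through the other barcodes alone 16611 reached it, and 209 of them were higher and 18 lower. Of the 82 list genes that reached it through the other barcodes alone, 35 were higher and 0 lower.

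Most haem synthesis genes were higher. Of 8 enzymes tested, 5 were higher and 0 lower, with a median log2 difference of 3.68 against -0.69 for all genes. *Alas2* stood at 4366 and 7695 CPM in erythroid barcodes of replicates 1 and 3, against 5.61 and 4.91 in the others, a log2 difference of 10.46 (SE 0.58, edgeR adjusted p = 2.59e-05). *Fech*, which inserts iron into the porphyrin ring as the last step, stood at 1224 and 2210.1 CPM against 14.3 and 16.5, a log2 difference of 7.11 (SE 0.46, edgeR adjusted p = 4.75e-05). Between these steps, the log2 differences (± SE) were 3.27 ± 0.33 for *Alad*, 4.43 ± 0.38 for *Urod* and 4.10 ± 0.38 for *Cpox*. In each of the 5 genes both erythroid sums were above both other sums. *Alas1*, the form of the first enzyme used in most tissues, stood at 39.2 and 30.4 CPM against 24 and 26.1 (edgeR adjusted p = 0.708). *Uros* had 2 and 5 erythroid UMIs and *Ppox* had 2 and 6, and neither passed (adjusted p = 0.392 and 0.138). At 70% globin 6 of the 8 passed, *Ppox* included.

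Of 19 genes of iron and haem handling, 6 were higher and 0 lower, with a median log2 difference of 1.85. *Slc25a37*, the mitochondrial iron importer of erythroid cells, had 234 and 363 UMIs, 2291 and 3680.2 CPM against 3.26 and 4.17, a log2 difference of 9.94 (SE 0.52, edgeR adjusted p = 2.06e-05). *Blvrb*, a reductase abundant in red cells, had 201 and 327 UMIs and a log2 difference of 8.0 (SE 0.48, edgeR adjusted p = 3.8e-05). *Ncoa4*, the receptor that takes ferritin to the lysosome, rose by 5.61 and *Glrx5*, a factor of iron-sulphur cluster assembly, by 4.03 on the log2 scale. The ferritin light chain *Ftl1* stood at 19774 and 30222 CPM against 1728 and 1968, a log2 difference of 4.06 (SE 0.45, edgeR adjusted p = 0.00121), and the heavy chain *Fth1* at 13048 and 21665 against 746 and 926, a log2 difference of 4.69 (SE 0.47, edgeR adjusted p = 0.000704). Together they held 3.28% and 5.19% of non-globin UMIs in erythroid barcodes, 8.26% and 7.41% at 70% globin, and 0.247% and 0.289% in the other barcodes. Both ferritin genes have copies elsewhere in the genome that could take some reads.

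Few UMIs came from genes of iron uptake. *Tfrc*, the transferrin receptor through which erythroid precursors take up iron, had 3 and 6 UMIs, 29.4 and 60.8 CPM against 23.6 and 22 in the other barcodes (edgeR adjusted p = 0.467). *Tfr2* and *Steap3*, further parts of the transferrin cycle, had 0 UMIs in replicate 1 and 1 in replicate 3 each. *Flvcr1*, a haem exporter, and *Abcb6* had 0 in both. At 70% globin 8 genes were higher and 1 lower, *Ireb2*, a regulator of iron-responsive mRNAs, which had 0 UMIs in either erythroid sum.

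Of 18 membrane and membrane skeleton genes tested, 9 were higher and 0 lower, with a median log2 difference of 3.53. Of the 9, *Slc4a1*, *Kel*, *Epb42* and *Ermap* reached the filter only with an erythroid sum, and of the other 14 genes 5 were higher, with a median of 2.79. *Slc4a1*, the band 3 anion exchanger, had 39 and 61 UMIs in 15 and 29 barcodes against 8 and 4 in all other barcodes, a log2 difference of 12.15 (SE 0.47, edgeR adjusted p = 9.11e-06). *Kel*, which carries the Kell blood group, had 8 and 18 UMIs and *Epb42*, protein 4.2, had 5 and 20, both against 0 in the other barcodes of either replicate. With 3 counts over the other barcodes as the floor, their ratios were 6479 and 6230. The exact counting intervals, which include the error of the erythroid counts, began at 4904 and 4702.

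The other members that passed were *Rhd*, *Ermap*, *Mpp1*, *Tmod1*, *Sptb* and *Epb41*. Their log2 differences ranged from 3.63 for *Epb41*, protein 4.1, to 8.08 for *Rhd*, the Rh blood group antigen. *Cd47*, a surface protein that many cell types express, stood at 97.9 and 122 CPM against 90.3 and 81.8, and *Add1*, an adducin, at 68.5 and 112 against 102 and 85.1, and neither passed (edgeR adjusted p = 0.579 and 0.854). *Ank1*, ankyrin, which ties the skeleton to band 3, had 2 and 6 UMIs and did not pass either (adjusted p = 0.599). At 70% globin 12 of the 18 were higher.

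**Figure D4:**
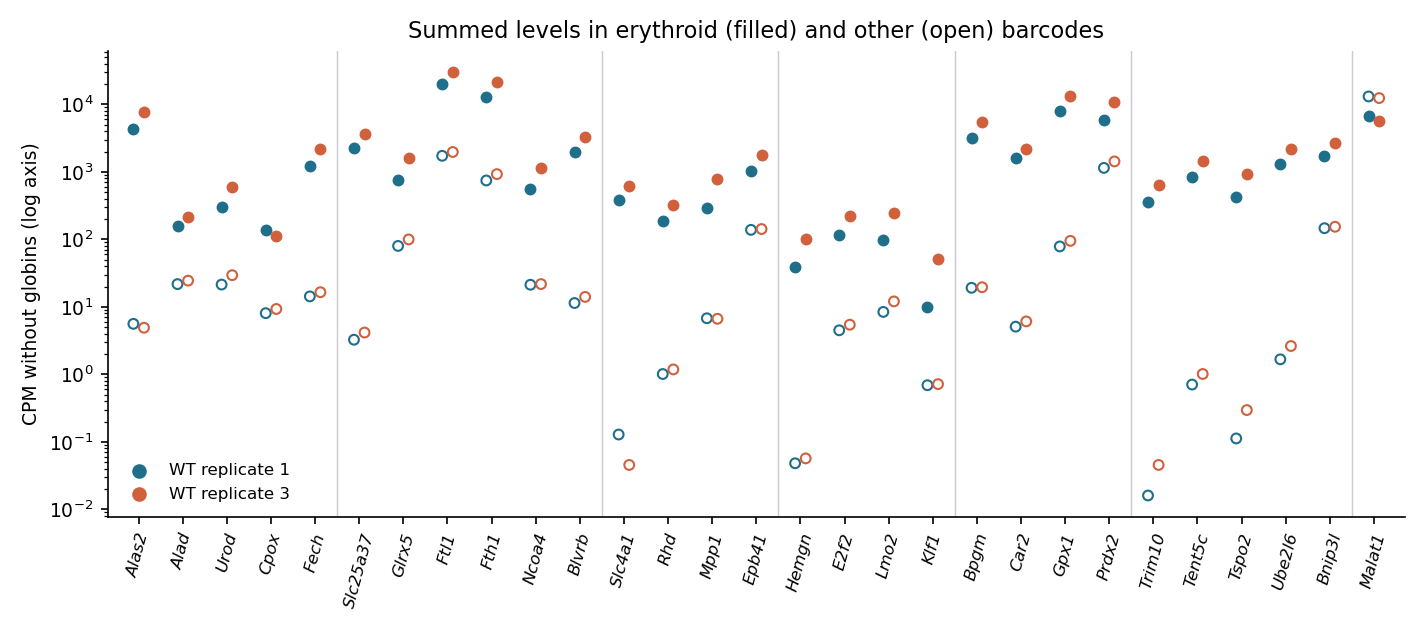
Level of 29 genes in CPM without globins (log axis) in the summed erythroid barcodes (filled) and the summed other barcodes (open) of WT replicates 1 and 3, in blocks for haem synthesis, iron and haem handling, membrane, transcription, red cell enzymes and maturation, with *Malat1* last. The 28 genes before *Malat1* were picked from list genes that passed as higher, and list genes that did not pass are not drawn. In all 28 both filled points lie above both open ones, which that choice largely fixed. *Alas2*, drawn first, stands at 4366 and 7695 CPM and *Klf1* at 9.79 and 50.7, and for *Malat1* the order is reversed.

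Of 19 erythroid transcription factors and cofactors, 17 could be tested, and 6 were higher and 0 lower. The median log2 difference of the 17 was 0.60, or 2.87 with *Lyl1*, at 0 in erythroid barcodes, at its upper bound. Of the 6, *Nfe2* and *Hemgn* reached the filter only with an erythroid sum. Of the other 15 genes 4 were higher, with a median of 0.55. *E2f2*, a cell cycle regulator of late erythroid cells, had 12 and 22 UMIs and a log2 difference of 5.36 (SE 0.46, edgeR adjusted p = 0.000248). *Lmo2*, a partner of the GATA1 and TAL1 complex, had 10 and 24 UMIs and a log2 difference of 4.35 (SE 0.52, edgeR adjusted p = 0.00217). *Foxo3*, which controls genes of oxidative stress and late maturation, had 11 and 21 UMIs and a log2 difference of 2.87 (SE 0.40, edgeR adjusted p = 0.00555). *Hemgn* had 4 and 10 UMIs against 3 and 5 in the other barcodes, and its pooled ratio was 1308 (exact counting interval 512 to 3599).

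The regulators of earlier stages rested on few molecules. *Klf1*, which switches on the adult beta globin gene, had 1 and 5 UMIs, passed with an edgeR adjusted p of 0.0158 and did not pass with the replicate block (adjusted p = 0.12, with a range over its alternatives of 8.38e-17 to 0.12). *Nfe2* had 0 and 7 UMIs, so its call (adjusted p = 0.0227, range over its alternatives 1.39e-13 to 0.091) rests on replicate 3. *Tal1* had 0 and 4 UMIs and did not pass (adjusted p = 0.136).

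*Sox6* and *Bcl11a*, which repress embryonic globin in definitive cells and are also expressed in the developing cortex, did not pass. *Sox6* stood at 362 and 902 CPM against 565 and 689, from 7 and 5 barcodes (log2 difference 0.34, edgeR adjusted p = 0.85). At 70% globin its log2 difference was -2.56 (adjusted p = 0.00493, range over its alternatives 2.25e-07 to 0.991), so its direction turned when the 14 barcodes of lower globin share were left out. *Bcl11a* had a log2 difference of -0.52 and -1.55 at 70% globin (adjusted p = 0.597 and 0.0251, range 0.000801 to 0.832).

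Of 7 testable genes of erythropoietin and stem cell factor signalling, 1 was higher and 0 lower, and the median log2 difference was -1.01, or 2.25 with the 2 genes without erythroid UMIs at their upper bounds. The gene was *Bcl2l1*, the survival factor that encodes BCL-XL, with 28 and 61 UMIs, 274 and 618 CPM against 53.5 and 48, and a log2 difference of 3.44 (SE 0.39, edgeR adjusted p = 0.00155). *Kit*, the stem cell factor receptor of early precursors, had 1 and 0 UMIs and *Cish* had 0 in both. *Pim1*, a kinase induced by this pathway, had 1 and 14 UMIs and did not pass (adjusted p = 0.204), but did with the block (0.00767, range over alternatives 3.2e-06 to 0.314).

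Enzymes and redox genes of red cells were higher in 8 of 10 tested, with 0 lower and a median log2 difference of 3.38. Of the 8, *Car1* reached the filter only with an erythroid sum. Of the other 9 genes 7 were higher, with a median of 3.04. *Gpx1* had 828 and 1325 UMIs, 8105 and 13433 CPM against 78.6 and 95.1, a log2 difference of 7.26 (SE 0.51, edgeR adjusted p = 6.73e-05). *Bpgm* had 328 and 533 UMIs and a log2 difference of 8.10 (SE 0.50, edgeR adjusted p = 3.85e-05). *Car2*, carbonic anhydrase 2, had 163 and 216 UMIs in 31 and 42 barcodes and a log2 difference of 8.69 (SE 0.43, edgeR adjusted p = 1.68e-05). *Car1*, a second carbonic anhydrase, had 1 and 3 UMIs, and its call was lost with the block (adjusted p = 0.297, against 0.00537, range over alternatives 1.18e-16 to 0.297). The peroxide-handling genes *Cat*, *Gpx4* and *Prdx2* rose by 3.72, 2.48 and 3.0 and *Hagh*, a glyoxalase, by 3.04 on the log2 scale. *Sod1* and *Cyb5r3* did not pass (adjusted p = 0.136 and 0.854), and *Pklr*, the red cell pyruvate kinase, had 0 UMIs in either replicate.

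Genes of organelle clearance, ubiquitin handling and enucleation were higher in 9 of 12 tested, with 0 lower and a median log2 difference of 3.72. Of the 9, *Trim10* and *Tspo2* reached the filter only with an erythroid sum. Of the other 10 genes 7 were higher, with a median of 3.08. *Bnip3l*, the receptor that marks mitochondria for removal, had 176 and 261 UMIs, 1723 and 2646 CPM against 146 and 154, a log2 difference of 4.17 (SE 0.37, edgeR adjusted p = 0.000344). The autophagy genes *Gabarapl2* and *Map1lc3b* rose by 3.57 and 2.59. *Ube2o*, a ubiquitin enzyme that clears proteins from reticulocytes, rose by 3.87, *Ube2l6* by 9.94 and the ubiquitin gene *Ubb* by 2.50. *Ube2h*, *Xpo7* and *Ulk1* did not pass (adjusted p = 0.0602, 0.165 and 0.861), and with the block the first 2 did (adjusted p = 0.00401 and 0.0121, with ranges over alternatives of 1.04e-07 to 0.173 and 0.000595 to 0.275), giving 11 of 12. *Trim58*, a ubiquitin ligase of late erythroid cells, had 0 UMIs.

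The remaining genes of this list were also among the 10 higher genes of largest difference. *Trim10*, needed for terminal erythroid differentiation, had 36 and 64 UMIs against 1 and 4 in all other barcodes, a pooled ratio of 14952 (exact counting interval 6198 to 47053). *Tspo2*, an erythroid relative of a mitochondrial cholesterol-binding protein, had 43 and 91 UMIs and a log2 difference of 11.64 (SE 0.59, edgeR adjusted p = 1.95e-05). *Tent5c*, a poly(A) polymerase, had 86 and 143 UMIs and a log2 difference of 10.59 (SE 0.50, edgeR adjusted p = 1.68e-05). Of the genes in no list, *Ctse*, the protease cathepsin E, rose by 11.08, *Grap2*, an adaptor protein, by 10.22, and *AI662270* by 10.21. *Hbq1a*, a theta-like globin outside the rule, had 24 and 23 UMIs against 10 and 9, a log2 difference of 10.61 (SE 0.48, edgeR adjusted p = 1.59e-05). It too reached the filter on low counts only with an erythroid sum, so it could hardly be called lower. Its neighbour *Hbq1b*, so similar that reads may be divided between them, had 5 and 20.

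Some of the most abundant genes that passed belonged to no list and were chosen after their values were seen. *Mkrn1*, a ubiquitin ligase, had 328 and 455 UMIs in 65 and 98 barcodes and a log2 difference of 5.62 (SE 0.41, edgeR adjusted p = 8.07e-05). *Ube2c*, which in dividing cells works with the anaphase-promoting complex, had 138 and 228 UMIs, 1351 and 2312 CPM against 128 and 186, a log2 difference of 3.85 (SE 0.41, edgeR adjusted p = 0.001). *Oaz1*, *Sec61g* and *Cd24a* rose by 3.88, 3.78 and 3.05 on the log2 scale.

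**Figure D5:**
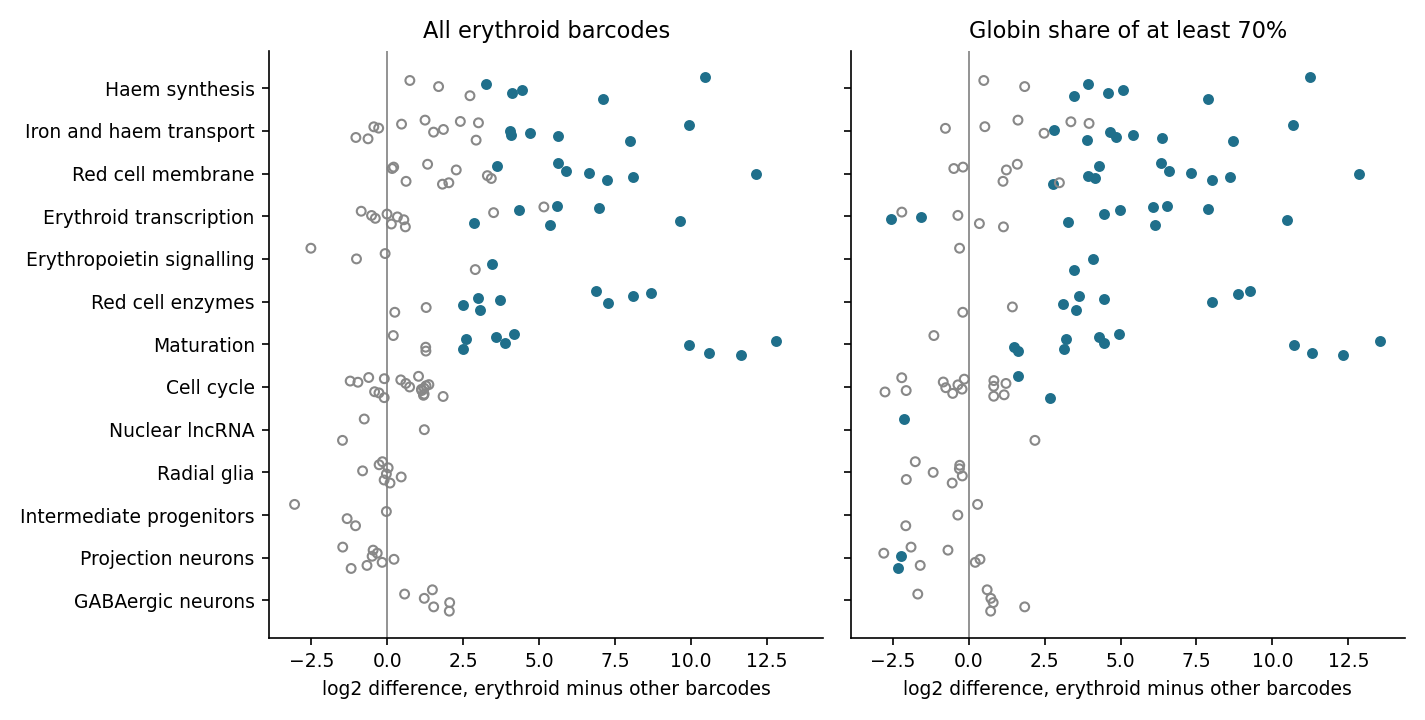
Log2 difference between erythroid and other barcodes for each tested gene of 13 lists, with all erythroid barcodes (left) and those of at least 70% globin (right). Filled points passed an adjusted p of 0.05 and open points did not, and genes with 0 UMIs in either group are not drawn. The called points of the erythroid lists lie to the right of 0 in the left panel, and *Sox6* and *Bcl11a* fall to its left in the right panel.

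Sequences upstream of a few of these genes are given because GATA1 and KLF1, factors that bind motifs of the kinds searched here, are known to act on red cell genes. The promoters are RefSeq sequences of GRCm38.p6 that run from 250 bases before to 50 after a gene's start, and 35 of the 44 list genes that were higher had an entry. AGATAA or TGATAA, searched on both strands, stood in 26.0% of the 50 promoters of these genes and in 18.6% of all 32851 promoters. CCNCNCCC, where N is any base, stood in 70% and 49.5%. In the 122 promoters of all genes of the 7 erythroid lists, whether they passed or not, the shares were 23.8% and 74.6%. The shares of the genes that passed were thus near those of their lists. AGATAA and TGATAA differ in their first base, and matches of the same motif may overlap. *Alas2*, *Trim10* and *Hemgn*, the haem enzyme, the gene of largest difference and a lineage marker, are printed below 5′ to 3′ on the strand of the gene, with matches on either strand in capitals, where TTATCT and TTATCA are the first 2 motifs read from the other strand.
Alas2 (chrX:150547167-150547466, plus strand): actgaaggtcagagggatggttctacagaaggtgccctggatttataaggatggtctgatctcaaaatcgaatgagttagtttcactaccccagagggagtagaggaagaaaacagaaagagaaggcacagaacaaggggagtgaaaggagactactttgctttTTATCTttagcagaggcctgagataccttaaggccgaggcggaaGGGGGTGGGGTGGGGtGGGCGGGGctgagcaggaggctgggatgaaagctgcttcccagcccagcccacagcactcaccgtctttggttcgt
Trim10 (chr17:36869324-36869623, plus strand): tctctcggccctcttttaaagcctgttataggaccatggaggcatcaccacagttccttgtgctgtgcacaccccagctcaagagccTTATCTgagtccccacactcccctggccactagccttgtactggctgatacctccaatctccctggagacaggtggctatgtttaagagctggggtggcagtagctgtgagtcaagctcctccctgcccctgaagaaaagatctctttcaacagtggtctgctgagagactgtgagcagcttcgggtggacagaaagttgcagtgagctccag
Hemgn (chr4:46404134-46404433, minus strand): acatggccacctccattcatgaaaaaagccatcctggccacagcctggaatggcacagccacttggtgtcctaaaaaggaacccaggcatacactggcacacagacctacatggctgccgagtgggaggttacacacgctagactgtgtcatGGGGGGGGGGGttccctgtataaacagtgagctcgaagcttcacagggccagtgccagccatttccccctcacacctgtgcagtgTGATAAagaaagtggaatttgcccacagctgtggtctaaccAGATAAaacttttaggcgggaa
*Alas2* held 1 match to AGATAA and 4 to CCNCNCCC, all on the other strand. *Trim10* held 1 match to AGATAA on the other strand. *Hemgn* held AGATAA and TGATAA on its own strand and 4 overlapping matches to CCNCNCCC on the other, in its run of G. A match describes the letters of the window only.

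Of 20 cell cycle genes tested, 0 passed by edgeR, although 8 had an unadjusted p under 0.05, 4 were higher by DESeq2 and 1 was higher with the block. With 1.54% of all genes passing by edgeR, 0 of 20 does not set these genes apart. The share of all genes that were higher was 1.86% with the block and 2.39% at 70% globin. Their median log2 difference was 0.68, and -0.44 at 70% globin. Their summed level was 130% and 118% of that in other barcodes, and 82.4% and 94.3% at 70% globin. *Mki67*, a marker of dividing cells, stood at 117 and 142 CPM against 74.2 and 78.8 (edgeR adjusted p = 0.26) and *Pcna* at 186 and 203 against 79.4 and 102 (0.0808, or 0.0095 with the block, range over its alternatives 0.000356 to 0.922). At 70% globin *Pcna* stood at 87.8 and 46.2 CPM, and its log2 difference turned from 1.37 to -0.35. At 70% globin 47 of 63 and 75 of 110 barcodes had no UMI of the 20 genes, 2 and 6 had at least 3, and the most in any barcode were 4 and 11. At that level 2 genes were higher, *Mki67* and *Ccnd3*, a cyclin of erythroid precursors.

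*Hemgn* UMIs were found in 7 barcodes, among them those with the most cell cycle UMIs at 70% globin. The barcode with 11 cell cycle UMIs, in replicate 3, had 1795 non-globin UMIs, with 6 of *Hemgn*, 10 of *Slc4a1*, 3 of *Klf1* and 1 of *Tfrc*. The barcode with 4, in replicate 1, had 1197 non-globin UMIs, with 2 of *Hemgn*, 11 of *Slc4a1* and 1 of *Tfrc*. Of the other 5, 1 had a globin share of 22% and was among the 14 of lower globin share, and the remaining 4 had 581 to 1031 non-globin UMIs, 1 or 2 of *Hemgn* and at most 5 cell cycle UMIs.

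RNA of other kinds was also measured in the erythroid barcodes. *Malat1*, retained in the nucleus, held 0.681% and 0.570% of non-globin UMIs, against 1.31% and 1.24% in other barcodes, a log2 difference of -0.76 (SE 0.33, edgeR adjusted p = 0.478). At 70% globin it held 0.187% and 0.307%, a log2 difference of -2.13 (edgeR adjusted p = 0.0045, range over its alternatives 1.89e-23 to 0.508). Of the 3 nuclear long noncoding RNAs, 0 passed in the first comparison by edgeR, 2 had an unadjusted p under 0.05, 1 was lower by DESeq2 and 1, *Kcnq1ot1*, was lower with the block (adjusted p = 0.0115, range over its alternatives 5.82e-06 to 0.53), and at 70% globin 2 were lower, *Malat1* and *Kcnq1ot1*. Ribosomal protein genes held 13.8% and 13.6% of non-globin UMIs, 17.4% and 16.1% at 70% globin and 9.88% and 10.7% in other barcodes. Of 81 tested, 1 was higher, and 20 at 70% globin, where the shares of all genes were 1.44% and 2.39%. Mitochondrial transcripts held 3.43% and 4.34% against 3.1% and 3.48%. Of 13 tested, 0 passed by edgeR (1 at an unadjusted p under 0.05 and 1 by DESeq2), with 1 higher and 1 lower at 70% globin. As 1.54% of all genes passed, 0 calls among these 13 or the 3 nuclear RNAs do not set them apart. At 70% globin 3.82% of all genes were lower.

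Of the 18 lower genes, 5 had at least 10 UMIs in each erythroid sum. *Robo2*, an axon guidance receptor, stood at 382 and 112 CPM against 1986 and 1355, a log2 difference of -2.53 (SE 0.46, edgeR adjusted p = 0.0278). *Nkain3*, which interacts with the sodium pump, stood at 215 and 213 against 1344 and 1413, a log2 difference of -2.41 (SE 0.32, edgeR adjusted p = 0.00395). *Plxna4*, a semaphorin receptor, *Pcdh7*, a protocadherin, and the noncoding *5730522E02Rik* fell by 1.98, 1.71 and 1.76 on the log2 scale. Their UMIs in erythroid sums came from few barcodes, 8 and 6 for *Robo2* and 5 and 4 for *Nkain3*. At 70% globin all 5 stayed lower, with 1 and 0 UMIs of *Nkain3* and 3 and 5 of *Robo2*.

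Markers of brain cells were present in the erythroid barcodes. The 8 projection neuron markers together stood at 63.1% of their level in other barcodes in replicate 1 and 45.7% in replicate 3 (mean 54.4% ± 12.3, SD, n = 2), and at 47.1% and 47.0% in barcodes of at least 70% globin. *Tubb3* and *Stmn2*, genes of neuronal microtubules, stood at 509 and 679 CPM against 856 and 771 and at 861 and 649 against 845 and 710.5. Of the 8 radial glia, 4 intermediate progenitor, 8 projection neuron and 6 GABAergic markers, 0 passed by edgeR, 3 had an unadjusted p under 0.05 and 0 passed by DESeq2. Since 1.54% of all genes passed by edgeR, 0 calls among so few markers do not set them apart. The share of all genes that were lower was 0.874% with the block and 3.82% at 70% globin. With the block 3 were lower, *Eomes* (adjusted p = 0.00427, range over its alternatives 0.00315 to 0.157), *Neurod2* (0.0142, range 0.0142 to 0.161) and *Sox11* (0.00185, range 6.8e-16 to 0.285). At 70% globin 1 intermediate progenitor marker, *Eomes*, and 2 projection neuron markers, *Bcl11b* and *Sox11*, were lower. The summed level of the radial glia markers was 104% and 86.0% of that in other barcodes, or 55.4% and 53.1% at 70% globin. That of the intermediate progenitor markers was 30.5% and 52.4%, from 9 and 14 UMIs, and that of the GABAergic markers 133% and 458%, from 19 and 16 UMIs. At 70% globin the intermediate progenitor markers stood at 10.1% and 68.2%, from 1 and 12 UMIs. The GABAergic markers then stood at 105% and 174%, from 5 and 4 UMIs. The source of this RNA was not tested.

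Markers of other cells of blood and vessels had few UMIs in the erythroid barcodes and were also rare in the others. The endothelial markers, at 56.3 and 56.2 CPM in other barcodes, stood at 17.4% and 36.1% of that level, or 52.0% and 54.8% at 70% globin. Meningeal markers stood at 22.3% and 14.6%, or 66.8% and 22.2% at 70% globin, and pericyte markers at 0% and 14.2%, or 0% and 21.6%. These shares rest on the few counts that follow. Of 8 microglia and macrophage markers, the summed UMIs were 2 and 0, and 0 in both at 70% globin. Of 6 endothelial markers they were 1 and 2, all of *Cldn5*. Of 5 pericyte markers they were 0 and 1, and of 5 meningeal fibroblast markers 2 and 2. The 6 megakaryocyte markers held 1 and 0 UMIs, with *Pf4* and *Ppbp* at 0, and the 8 markers of other leukocytes, *Ptprc* included, held 0 and 0. Of the 29 testable genes of these 6 lists, 0 passed by edgeR, 2 had an unadjusted p under 0.05 and 0 passed by DESeq2. Against 1.54% of all genes by edgeR, 0 of 29 does not set these genes apart.

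Globin RNA was also found outside the erythroid barcodes. At least 1 globin UMI was present in 74.8% of the other barcodes in replicate 1 and 98.4% in replicate 3, with a median of 1 and 5 UMIs. The erythroid barcodes nevertheless held 95% and 91.0% of all globin UMIs of the kept barcodes. In other barcodes under 1% globin, embryonic genes made 2.40% and 4.45% of the beta-like UMIs, against 0.502% and 2.16% in the erythroid barcodes.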

How the data were processed

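Dissociated cells of 2 WT libraries were sequenced by the study after 10x Genomics 3′ capture. The deposited values are UMI counts per gene and barcode, which the authors made with Cell Ranger 7.0.0 on mm10 per the labels and left without normalization. The annotation and intron setting were not given in the sources used here. The erythroid rule was applied after a filter for totals from 1500 to 60000 UMIs and a mitochondrial share below 10%. Predicted doublets were not removed. They were called per replicate from Scrublet scores in scanpy 1.11.5 (2 simulated doublets per cell). The barcodes of highest score were marked, up to a number fixed beforehand at 0.8% per 1000 barcodes. This number was 238 (4.36%) and 448 (5.99%), so it is not an estimate from the scores.

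Counts were summed per replicate for erythroid and other barcodes without the 7 globins and tested with edgeR 4.0.16 (R 4.3.3), using TMM scaling, its filter on low counts, the quasi-likelihood test, Benjamini-Hochberg adjustment over all genes, a threshold of 0.05 and a prior count of 2. DESeq2 1.42.0 was an alternative. The sums of 1 replicate come from 1 library, which pairs them, and the correlation of their deviations over 16703 genes was 0.0831. With 2 sums per group the precision is limited by that number and by 102157 and 98637 non-globin UMIs. Simulated data for this comparison covered 16408 genes and gave 2 false calls. The test called 98% of genes changed by 2 on the log2 scale, 4% of those changed by 1 and 54% of those changed by -2. The changed genes were picked only among those expected to have several UMIs in the smallest sum. These rates therefore do not hold for genes of lower level.

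The globin rule, the gene lists and the tests were chosen with earlier results of these data known. Named genes were those of the lists and, among genes that passed, moved the same way in both replicates and had at least 10 UMIs in each erythroid sum (178 higher, 5 lower), the 10 higher and 5 lower of largest difference. The haem synthesis (8 genes), iron (19), membrane (21), transcription (19), signalling (8), enzyme (13, of which 12 are in the files), maturation (13), cell cycle (20) and nuclear RNA (3) lists and the markers of other cells were fixed with them. Some listed genes and 1 of these 10 are not reported here. Gene coordinates and promoters are RefSeq entries of GRCm38.p6, the same build as mm10. Embryonic and adult globin barcodes were set at 50% embryonic beta-like UMIs, and a test between them was planned only for at least 10 barcodes per side in each replicate.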

Additional observations from a re-analysis of the deposited data

Results flagged for a closer look

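Globin-rich barcodes were also present below the minimum of 1500 UMIs, which no comparison above used. There were 25 such barcodes with at least 20% globin UMIs in replicate 1 and 53 in replicate 3, or 6.25% and 9.89% of the barcodes under the minimum, with a median globin share of 76.2% and 73.7%. They were set apart because they carry the signal outside the measured set, and no control sample exists for them. Embryonic globins prevailed in 4 (16%) and 10 (18.9%) of them, against 1.41% and 4.31% of the erythroid barcodes above the minimum, and 1 and 6 had between 5 and 95% embryonic beta-like UMIs. The part of their depth in this was not tested.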

How the results depend on the processing

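The erythroid share of 1.43% became 1.96% with a minimum of 500 UMIs per barcode and 0.971% with 3000, and its other alternatives stayed within 1 SD. Leaving out 1 replicate at a time gave 1.30 to 1.55%. The embryonic share of beta-like UMIs became 0.0208% without predicted doublets, which were the 6 embryonic barcodes, 0.795% with a minimum of 3000 UMIs and 1.93% with 500, and was 0.502 to 2.16% with 1 replicate left out. The level of projection neuron markers relative to other barcodes was 45.7 to 63.1% with 1 replicate left out and moved by less than 1 SD otherwise. The 258 genes that passed became 456 with the replicate block (310 higher, 146 lower), 631 with DESeq2 (581 and 50), 590 without a filter on low counts (424 and 166), 492 at 50% globin (360 and 132), 1034 at 70% globin (398 and 636) and 1069 at 70% globin with the block (372 and 697). The cause of these changes was not tested. The other 5 alternatives gave 193 to 272 genes. Of 185 genes with alternatives, 59 of them called, reversals of genes that passed in either of the fits compared were found for *Sox6* at 70% globin (-2.56, and -2.59 with the block) and for *Nfe2* without replicate 3 (-2.48, with 0 erythroid UMIs, and 7.92 without replicate 1). The block changed the calls of 11 of the 185 genes, lost for *Klf1* and *Car1* and gained for 9. The alternatives planned for embryonic against adult barcodes were not run, since 1 and 5 embryonic barcodes were under the minimum of 10, and leaving out a replicate gave fold changes without a count. Depth limits genes of few UMIs most, such as *Klf1* with 1 and 5.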

Other observations

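1 barcode of replicate 3, with 5406 UMIs and 68.4% globin, held 93 UMIs of *Hbb-bh1*, 0 of *Hbb-y* and 0 of *Hba-x*, beside 1508 of *Hbb-bs* and 794 of *Hbb-bt*. In the 6 barcodes with embryonic globins *Hbb-bh1* had 0 to 13 UMIs beside 801 to 2400 of *Hbb-y*, and the next highest embryonic count among adult-type barcodes was 8 UMIs of *Hbb-y*, in replicate 1. The barcode was noticed after the values were seen and nothing was tested on it.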
